A study of Mus musculus with 3 samples.

Results

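The genes described here are those of antigen presentation and its regulation: the major histocompatibility complex (MHC, called H2 in the mouse), the machinery that cuts and loads its peptides, the CD1 genes, the ligands that steer T cell activation, and Aire. They were chosen by a rule on names that uses no measured values, though earlier results of these data were known. The rule took the array's gene names that start with H2- or are one of a fixed set of names, which gave 58 genes of 28084 on the array. Between them these 58 genes had 89 probes and 125 spots. A gene stood for its brightest probe, the one with the highest mean over the arrays. Of the 58, 2 (H2-Ke2 and H2-Ke6) carry an H2 name but encode no MHC protein. The current symbol of H2-Ke2 is Pfdn6, a prefoldin subunit.

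MHC class I molecules, built of a heavy chain and beta 2-microglobulin, show peptides from inside the cell to CD8 T cells. The immunoproteasome cuts those peptides, the TAP transporter carries them into the endoplasmic reticulum and tapasin helps to load them, and NLRC5 is a transactivator of these genes. MHC class II molecules show peptides from endocytic vesicles to CD4 T cells, need the invariant chain CD74 and the editors H2-DM and H2-DO, and depend on the transactivator CIITA. Lymph node stromal cells are known to present antigen and to display inhibitory ligands such as PD-L1, the product of Cd274, in the maintenance of T cell tolerance.

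Lymphatic endothelial cells (LEC; gp38+, CD31+), blood endothelial cells (BEC; gp38-, CD31+) and fibroblastic reticular cells (FRC; gp38+, CD31-), which form the fibre network of the node, were sorted as CD45- CD24- cells from mesenteric lymph nodes of wild-type C57BL/6NCrl mice. All 3 populations went through the same collagenase digestion and magnetic removal of CD45-bearing cells, and the labels give a mean purity of 88% ± 1.5 over the sorted subsets without saying what the error is. Each population gave 1 single-colour array, so the differences below have no replicate check, none was tested, and the number of arrays limits the precision. The age, sex and diet of the mice, and the number of mice and sorts behind each RNA, are not given in the sources used here.

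Signals are given on the log2 scale with the 75th percentile of their own array at 0. A difference is taken between arrays for the same probe, and a member was counted as higher at 4-fold, a log2 difference of 2. For a gene with no probe well above background on the dimmer array, the fold is a lower bound, set against the lowest signal well above background on that array, or the probe's own value where that was higher (-4.20 in LEC, -4.38 in BEC and -4.34 in FRC). The labels held against lineage markers at the 4-fold threshold. LEC exceeded BEC in 9 of 10 lymphatic markers, and BEC exceeded LEC in 9 of 10 blood endothelial markers. LEC and BEC each exceeded FRC in 7 of 8 markers of both endothelia, and lay below FRC in 9 and 10 of 12 FRC markers. Each endothelium also carried signal of the other's markers. BEC exceeded FRC at least 4-fold in 9 of 10 lymphatic markers, and LEC exceeded FRC in 8 of 10 blood endothelial markers. Whether cells were carried over between the sorted populations was not tested. All 10 pan-leukocyte markers, Ptprc (CD45) included, were well above background on every array, although CD45 was gated out. Cd24a, the gene of CD24, which was also gated out, was at 3.40 in LEC, 3.89 in BEC and 1.61 in FRC. It exceeded FRC 3.46-fold in LEC and 4.86-fold in BEC. On the spike-in controls, log signal grew with log concentration at a slope of 1.00 on the LEC array, 0.919 on the BEC array and 0.821 on the FRC array, and the scanner software marked the FRC slope as out of its range. Log2 values were therefore also divided by each array's slope, and members whose direction against FRC turned under that division are named where their values are given.

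Of the 58 members, 38 were well above background on all arrays, 6 on 1 or 2 arrays and 14 on none. The 14 were Aire, Cd86, Pdcd1lg2 (PD-L2), Cd1d2, H2-Ea, H2-Q1, H2-T3, H2-M1, H2-M11 and H2-M10.1, H2-M10.3, H2-M10.4, H2-M10.5 and H2-M10.6. Aire drives the display of tissue antigens in the thymus, and CD86 is a main co-stimulatory ligand of professional antigen-presenting cells. H2-Ea is known to be silent in C57BL/6 mice.

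In LEC against FRC, 42 members could be compared. Of these, 3 were at least 4-fold higher in LEC (7.14%, against 4.89% of the 18441 genes compared) and 1 at least 4-fold higher in FRC (2.38%, against 5.93%). At 2-fold, 24 were higher in LEC (57.1%, against 13.0% of all genes) and 2 in FRC (4.76%, against 13.3%). The median log2 difference was 1.13 over the members and 0.03 over all genes compared. These members are not independent of each other, since class I probes share sequence, and with H2-K1 as the only heavy chain the members' median was 0.68.

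In BEC against FRC, 44 members could be compared. Of these, 7 were at least 4-fold higher in BEC (15.9%, against 6.58% of the 18833 genes compared) and 0 at least 4-fold higher in FRC (0.00%, against 7.57%). At 2-fold, 28 were higher in BEC (63.6%, against 16.8%) and 2 in FRC (4.55%, against 16.5%). The median was 1.30 over the members and 0.09 over all genes. Both endothelia were set against the same FRC array, so the 2 comparisons share that array.

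In LEC against BEC, none of the 43 members compared was 4-fold different in either direction, against 3.39% of 18325 genes higher in LEC and 3.38% higher in BEC. At 2-fold, 0 members were higher in LEC (0.00%, against 11.0%) and 8 in BEC (18.6%, against 10.2%). All but 1 of those 8 were class II genes or Cd74, and the other was Icosl. The median was -0.12 over the members and -0.07 over all genes. In these bulk samples, fewer cells that express a gene and less RNA per cell cannot be told apart.

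**Figure D1:**
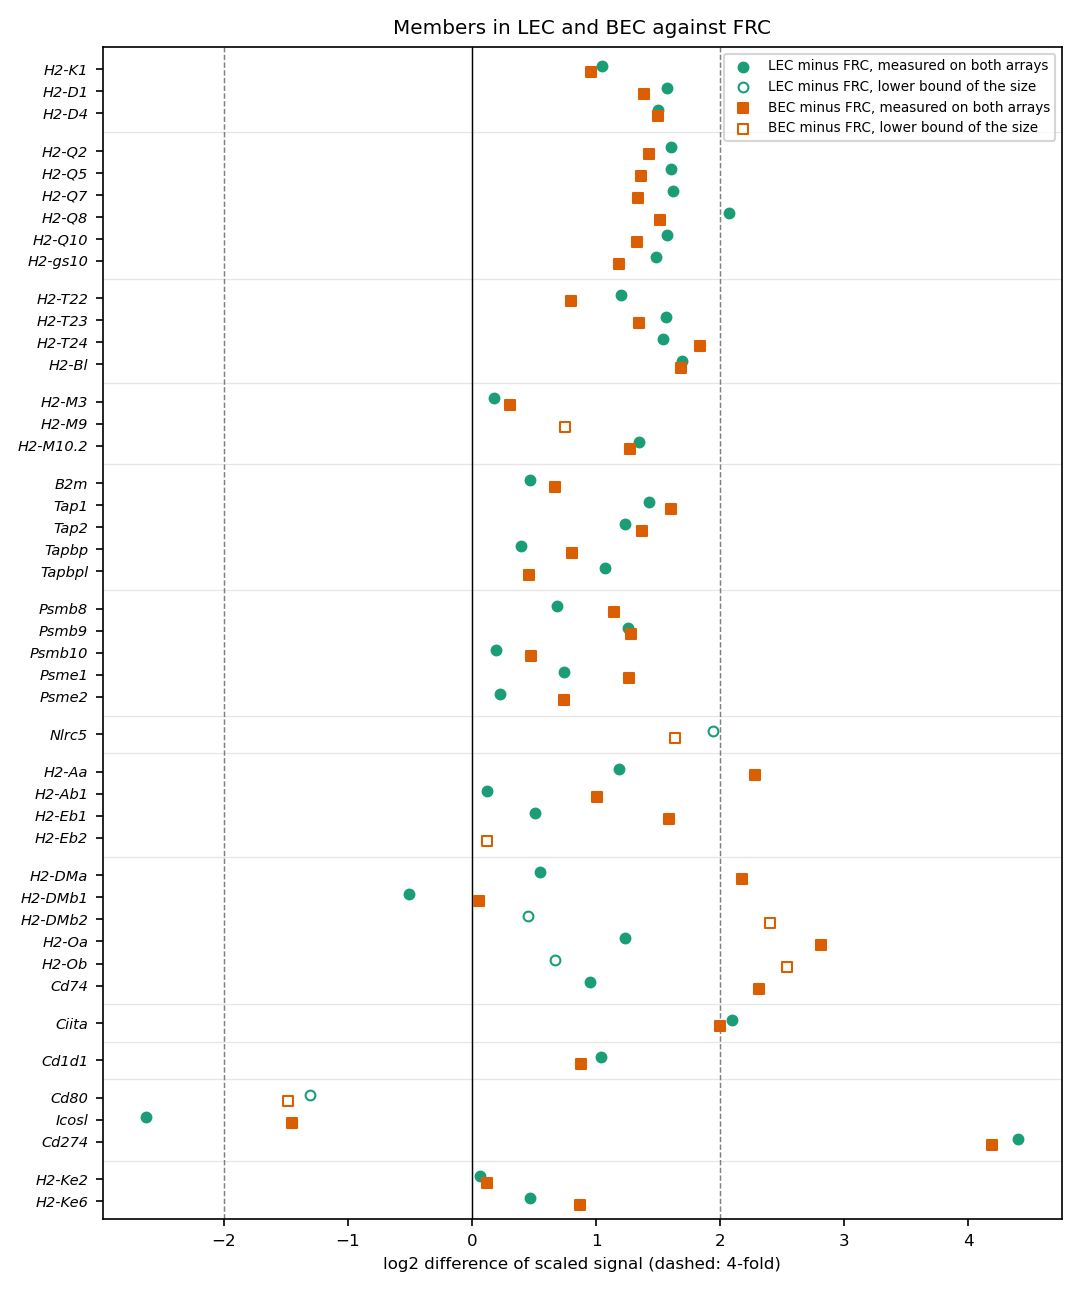
Log2 difference of each member in LEC and in BEC against FRC (x axis), for every member compared, grouped from top to bottom by role (class I heavy chains by region, loading, immunoproteasome, transactivator, class II, CD1, ligands and the 2 H2-named genes outside the MHC families). Filled points were measured on both arrays and open points are lower bounds of the size; the dashed lines mark 4-fold. To the right of 2 lie 6 class II genes of BEC, Ciita and H2-Q8 of LEC, and Cd274 of both endothelia. Icosl of LEC lies to the left of -2. The class I heavy chains other than H2-M3, with H2-Q8 included, lie between about 0.8 and 2.1. Under the spike-in slope the heavy chains moved to a median of 0.18 in LEC and 0.65 in BEC.

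Class I heavy chain genes are near-copies of each other, so the probes were compared with each other by sequence. Among 40 heavy chain probes there were 754 pairs of probes of different genes, and 5 pairs, over 8 genes, shared an identical run of at least 15 bases. The 3 pairs with the longest shared runs are shown, with the shared run in capitals. Probes were not compared with the transcripts of the other genes. A probe without a shared run was therefore not shown to measure its own gene alone. The H2-Q5 and H2-Q10 probes share 35 bases, the H2-T23 and H2-Q7 probes 28 and the H2-Q2 and H2-D1 probes 24.
H2-Q5: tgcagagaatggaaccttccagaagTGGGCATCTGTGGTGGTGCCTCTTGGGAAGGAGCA
H2-Q10: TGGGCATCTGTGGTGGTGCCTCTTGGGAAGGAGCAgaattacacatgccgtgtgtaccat
H2-T23: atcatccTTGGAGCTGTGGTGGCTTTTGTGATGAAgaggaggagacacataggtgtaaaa
H2-Q7: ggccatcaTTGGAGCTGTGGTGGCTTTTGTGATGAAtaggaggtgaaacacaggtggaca
H2-Q2: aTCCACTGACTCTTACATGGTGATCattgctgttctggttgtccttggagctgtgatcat
H2-D1: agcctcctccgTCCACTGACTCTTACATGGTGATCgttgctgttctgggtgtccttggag
The probes lie, by the positions in the files on mouse build mm9, at chr17:36246864-36247298 (H2-Q5), chr17:35610210-35610269 (H2-Q10), chr17:36167338-36167574 (H2-T23), chr17:35579687-35579918 (H2-Q7), chr17:35482113-35482172 (H2-Q2) and chr17:35403132-35403191 (H2-D1). The H2-Q5, H2-T23 and H2-Q7 spans are longer than the 60 bases of the probe. Exon and UTR annotation on that build was not used here.

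Class I heavy chains were higher in both endothelia than in FRC. Of the 25 heavy chain genes, 16 were well above background on some array and 15 could be measured on both arrays of each comparison. In LEC against FRC all 15 differences were positive with a median of 1.57, and 14 were at least 2-fold, against 13.0% of all genes. Once values were divided by the spike-in slope, 12 of 15 were positive with a median of 0.18, and 4 of 15 were at least 2-fold. The share of all genes at 2-fold was not computed under the slope. In BEC against FRC all 15 were positive with a median over those 15 of 1.35, and 14 of 15 with a median of 0.65 under the slope. Quantile normalization, which uses ranks within an array, gave 15 of 15 in both comparisons with medians of 1.74 and 1.37. Between LEC and BEC the median was 0.18 and turned to -0.43 under the slope, which turned 10 heavy chains in that comparison (H2-Bl, H2-D1, H2-K1, H2-Q2, H2-Q5, H2-Q7, H2-Q10, H2-T22, H2-T23 and H2-gs10).

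H2-K1, a classical class I gene that all nucleated cells are known to express, was at 8.95 in LEC, 8.86 in BEC and 7.90 in FRC. Its probe, at chr17:34133055-34133114, was spotted 10 times on each array, with an SD between spots of 0.05 in LEC, 0.02 in BEC and 0.05 in FRC, which covers spot error only. The log2 difference was 1.05 for LEC minus FRC and 0.96 for BEC minus FRC, and under the slope these became -0.71 and 0.02, so the direction in LEC turned and the difference in BEC was nearly gone. H2-D1, the other classical gene of this strain, was at 8.50 in LEC, 8.32 in BEC and 6.93 in FRC. That was 2.98-fold above FRC in LEC and 2.62-fold above FRC in BEC, and the 2 endothelia differed by 0.18. Under the slope H2-D1 stood 0.03 above FRC in LEC and 0.61 in BEC, and its LEC minus BEC difference turned to -0.58. The third gene name of that region, H2-D4, was 2.82-fold above FRC in LEC and 2.84-fold in BEC.

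Among Q region genes, H2-Q8 had the largest LEC minus FRC difference of the heavy chains under 75th-percentile scaling, at 5.07 in LEC, 4.51 in BEC and 3.00 in FRC. It exceeded FRC 4.21-fold in LEC and 2.85-fold in BEC, and under the spike-in slope the LEC minus FRC difference was 1.40, below 4-fold. H2-Q7, a gene of the Qa-2 antigen, was at 7.85 in LEC, 7.57 in BEC and 6.23 in FRC. H2-gs10, whose current symbol is H2-Q4, was at 8.29 in LEC, 7.99 in BEC and 6.81 in FRC, and its LEC minus FRC direction turned under the slope. By name 6 Q region genes were measured, although by position the H2-Q5 probe lies among the T region probes, between those of H2-Bl and H2-T3. All 6 were at least 2-fold higher in each endothelium than in FRC, and under the spike-in slope H2-Q8 alone was. The log2 differences of the 6 ran from 1.48 to 2.07 in LEC and from 1.18 to 1.51 in BEC. Under the slope they ran from -0.03 (H2-gs10) to 1.40 (H2-Q8) in LEC and from 0.40 (H2-gs10) to 1.26 (H2-Q8) in BEC. Of these, H2-Q10, known as a secreted class I molecule of liver, had 5 probes that did not give 1 value: the LEC minus FRC differences were 1.57 for the brightest, and 1.998, 3.60, 1.04 and -0.42 for the others. The brightest H2-Q10 probe is the one that shares 35 bases with H2-Q5, so its level cannot be assigned to H2-Q10 alone.

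Among T region genes, H2-T23, which encodes Qa-1, the ligand of the inhibitory receptor NKG2A, was at 8.04 in LEC, 7.82 in BEC and 6.48 in FRC, 2.96-fold and 2.54-fold higher in the 2 endothelia. Its probe shares 28 bases with the H2-Q7 probe, so neither level was shown to be that of 1 gene alone. H2-T22, a ligand of a subset of gamma-delta T cells, was at 5.81 in LEC, 5.41 in BEC and 4.61 in FRC. H2-Bl was at 4.55 in LEC, 4.54 in BEC and 2.86 in FRC by its brightest probe, which shares 16 bases with an H2-K1 probe. Its other probes were far dimmer, at -2.49 and -2.37 in LEC and -2.80 and -2.48 in BEC, and not well above background in FRC. The bright level was therefore not shown to be that of H2-Bl alone. In each of these 3 genes both endothelia lay above FRC, also under the slope, by 0.13 to 1.06 in LEC and by 0.27 to 1.46 in BEC. H2-T24 was dimmer, at -1.89 in LEC, -1.59 in BEC and -3.43 in FRC, and stood 1.54 and 1.84 higher in LEC and BEC than in FRC, or 0.67 and 0.94 with normexp and 2.29 and 2.45 under the slope. In the M region, H2-M3, which presents N-formyl peptides, was the heavy chain that differed least, at 3.18 in LEC, 3.30 in BEC and 3.00 in FRC, and both its differences against FRC turned sign under the slope. H2-M10.2 was at -0.27 in LEC, -0.35 in BEC and -1.62 in FRC. H2-M9 was well above background in BEC alone, at -3.59, at least 1.68-fold above FRC.

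**Figure D2:**
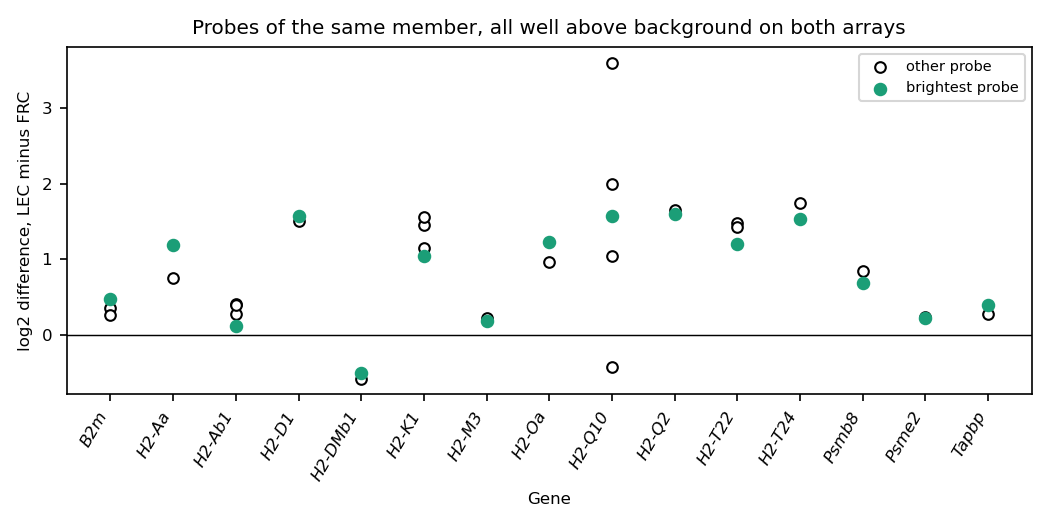
LEC minus FRC log2 difference (y axis) of each probe of the members with several probes well above background on both arrays (x axis), with the brightest probe filled and the others open. The probes of a gene lie close together except for H2-Q10, whose 5 probes run from -0.42 to 3.60; under the spike-in slope the brightest B2m, H2-Ab1, H2-K1, H2-M3, Psmb8, Psme2 and Tapbp probes turned below 0.

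Where a member had another probe well above background, that probe went the same way for 23 of 24 probes in LEC against FRC, the exception being H2-Q10. In BEC against FRC it did so for 21 of 24, with exceptions in B2m, H2-DMb1 and H2-Q10, and between LEC and BEC for 22 of 26. The H2-K1 probes other than the brightest gave LEC minus FRC differences of 1.15, 1.46 and 1.56, so the brightest probe of that gene gave the smallest difference.

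The light chain, loading and proteasome genes had smaller median differences from FRC than the heavy chains, 0.71 against 1.57 in LEC and 0.98 against 1.35 in BEC, and under the spike-in slope the medians were -0.34 against 0.18 and 0.51 against 0.65. B2m, the light chain, was at 8.68 in LEC, 8.88 in BEC and 8.21 in FRC, with differences of 0.47 in LEC and 0.67 in BEC that became -1.35 and -0.34 under the spike-in slope. Tap1 and Tap2, which together form the peptide transporter, kept their direction under every scaling. Tap1 was at 1.38 in LEC, 1.56 in BEC and -0.05 in FRC, 2.69-fold and 3.05-fold higher in LEC and BEC than in FRC. Tap2 was at 3.07 in LEC, 3.21 in BEC and 1.84 in FRC, 2.35-fold and 2.58-fold higher. Tapbp, tapasin, was at 6.05 in LEC, 6.46 in BEC and 5.66 in FRC, and its LEC minus FRC direction turned under the slope. Tapbpl (TAPBPR), a tapasin-related peptide editor, was the loading gene with the higher value in LEC, at 1.88 in LEC, 1.26 in BEC and 0.81 in FRC.

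The immunoproteasome subunits Psmb8, Psmb9 and Psmb10 replace the standard catalytic subunits, and Psme1 and Psme2 form the PA28 activator. Psmb9 was at 5.18 in LEC, 5.21 in BEC and 3.93 in FRC, 2.39-fold and 2.43-fold higher in LEC and BEC than in FRC. Psmb8 was at 5.45 in LEC, 5.91 in BEC and 4.77 in FRC, and Psmb10 at 5.67 in LEC, 5.95 in BEC and 5.48 in FRC. Psme1 was at 5.50 in LEC, 6.03 in BEC and 4.76 in FRC, and Psme2 at 5.45 in LEC, 5.96 in BEC and 5.22 in FRC. Under the spike-in slope the LEC minus FRC direction of these 4 turned, to -0.37 for Psmb8, -1.02 for Psmb10, -0.32 for Psme1 and -0.93 for Psme2, and BEC minus FRC turned for Psmb10, to -0.20. All 10 loading and proteasome genes were higher in LEC than in FRC (median 0.71), 4 of them at least 2-fold, against 13.0% of all genes. Under the spike-in slope 4 of 10 were higher, with a median of -0.34. In BEC against FRC all 10 were higher (median 0.98), 5 at least 2-fold, against 16.8% of all genes. Under the slope 8 of 10 were higher (median 0.51). Of the 18 other class I pathway genes listed for comparison, 0 were 4-fold different in any of the 3 comparisons. Among them are the standard subunits Psmb5, Psmb6 and Psmb7 and the chaperones Calr, Canx and Pdia3. Of all genes compared, between 3.38% and 7.57% were 4-fold different in each direction of a comparison. Their medians were -0.09 in LEC and 0.08 in BEC against FRC, and -0.60 and -0.18 under the slope.

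Nlrc5, the class I transactivator, was at -2.39 in LEC and -2.70 in BEC and was not well above background in FRC. It exceeded FRC at least 3.85-fold in LEC and at least 3.12-fold in BEC. The log2 differences of 1.94 and 1.64 behind these bounds became 0.61 and 0.64 with normexp, and 2.90 and 2.35 under the spike-in slope.

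**Figure D3:**
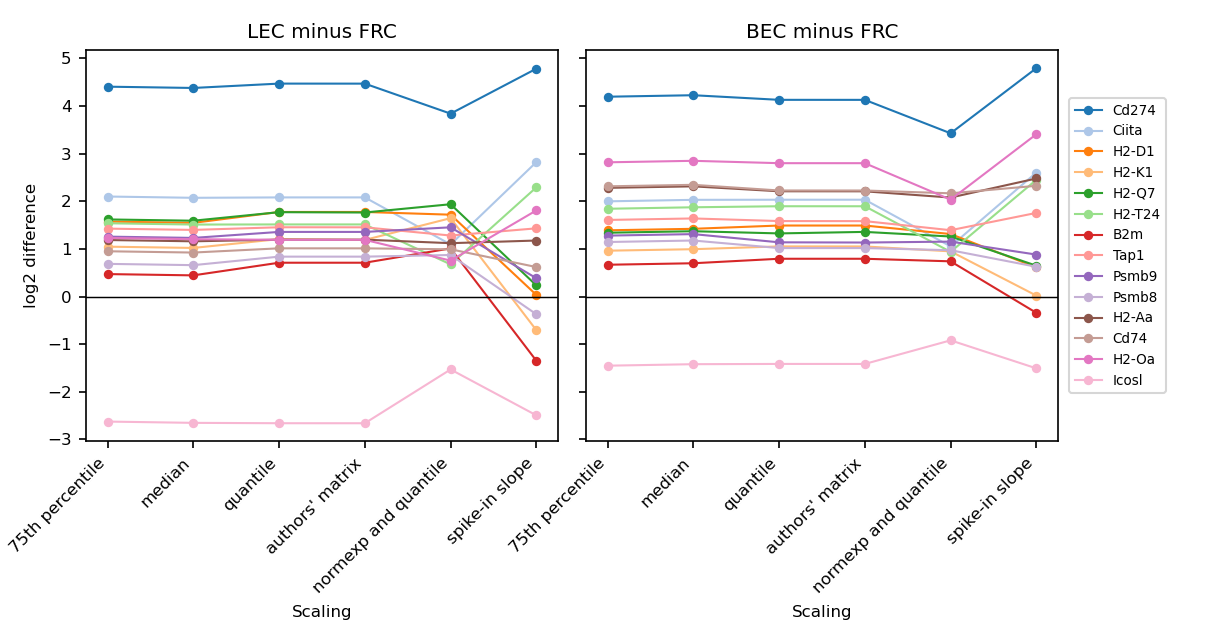
Log2 difference against FRC (y axis) of 14 members in LEC (left) and BEC (right) under 6 scalings (x axis): the 75th percentile, the median, quantile normalization, the authors' matrix, normexp with quantile normalization, and division by the spike-in slope. The lines join the values of 1 gene and carry no order. Cd274 stays above 3 throughout, while B2m falls below 0 in both panels, and H2-K1 and Psmb8 in the LEC panel, under the spike-in slope.

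Most class II genes were highest in BEC. Of the 11 genes (chains, editors and Cd74), 10 were well above background on some array. In BEC against FRC, 6 of 10 exceeded FRC at least 4-fold (6.58% of all genes) and 8 at least 2-fold (16.8%), with a median of 2.23. In LEC against FRC, 0 of 9 were 4-fold different and 2 were at least 2-fold higher, with a median of 0.55. Of all genes, 4.89% were 4-fold higher in LEC, 5.93% 4-fold higher in FRC and 13.0% 2-fold higher in LEC. All 9 genes measured in both endothelia were lower in LEC than in BEC, 7 of them at least 2-fold, against 10.2% of all genes. None turned under any of the 5 other scalings.

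H2-Aa, the alpha chain of I-A, was at 1.22 in LEC, 2.31 in BEC and 0.03 in FRC, 2.28-fold above FRC in LEC and 4.86-fold in BEC. H2-Ab1, its beta chain, was at 2.46 in LEC, 3.35 in BEC and 2.34 in FRC, so that LEC and FRC differed by 0.12, a difference that turned under the spike-in slope. Its other 3 probes gave LEC minus FRC differences of 0.41, 0.28 and 0.40. H2-Eb1, the I-E beta chain, was at 0.68 in LEC, 1.76 in BEC and 0.17 in FRC, 3.01-fold above FRC in BEC. H2-Eb2 was well above background in BEC alone, at -4.21, close to the lowest such signal there.

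Cd74, the invariant chain that fills the groove until a peptide is loaded, was at 2.43 in LEC, 3.79 in BEC and 1.48 in FRC. It exceeded FRC 1.93-fold in LEC and 4.97-fold in BEC, and BEC exceeded LEC by 2.57-fold. Among the editors, H2-DMa was at -0.90 in LEC, 0.74 in BEC and -1.44 in FRC, 4.53-fold above FRC in BEC. Its partner chains went apart. H2-DMb1 was at 0.95 in LEC, 1.51 in BEC and 1.46 in FRC, lower in LEC than in FRC by both probes (-0.51 and -0.58), and near FRC in BEC with the sign differing between probes (0.06 and -0.06) and turning under the slope. H2-DMb2 was at -3.89 in LEC and -1.94 in BEC and was not well above background in FRC, so that BEC was at least 5.27-fold above FRC.

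H2-Oa and H2-Ob form H2-DO, an inhibitor of H2-DM known chiefly from B cells and thymic epithelium. H2-Oa was at -1.40 in LEC, 0.19 in BEC and -2.63 in FRC, and at 7.05-fold it was the class II gene that differed most between BEC and FRC on both-sided measurement. Its second probe gave 2.75 for BEC minus FRC, against 2.82 for the first. H2-Ob was at -3.45 in LEC and -1.58 in BEC and was not well above background in FRC, so that BEC was at least 5.82-fold above FRC. Under normexp background correction, H2-DMa, H2-DMb2 and H2-Ob came below 4-fold in BEC against FRC, at 1.83, 1.11 and 1.02.

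Ciita did not follow the class II genes. The transactivator was at -1.20 in LEC, -1.30 in BEC and -3.30 in FRC, 4.28-fold above FRC in LEC and 3.99-fold in BEC, and the 2 endothelia differed by 0.10 in Ciita while every class II gene measured in both was lower in LEC. Under normexp the Ciita differences were 1.09 in LEC and 1.05 in BEC, and under the other 4 scalings they were over 2 in both.

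The leukocyte marker lists did not all peak in the same population. Beside their counts at 4-fold, 4.89% of all genes exceeded FRC in LEC and 6.58% in BEC. Over the 10 pan-leukocyte markers the summed signal, as a multiple of the array's 75th percentile, was 19.4 in LEC, 41.4 in BEC and 10.8 in FRC. BEC exceeded FRC at least 4-fold in 5 of 10 (median 1.998; 2 of 10 with normexp), against 0 of 10 in LEC (median 0.80; 2 of 10 under the slope). Between the endothelia 6 of 10 were lower in LEC than in BEC and 4 higher (median -0.55), with Lcp1 4-fold lower and Laptm5 2.13-fold higher in LEC. Ptprc was at -1.57 in LEC, 0.23 in BEC and -2.36 in FRC, and Lcp1, an actin-bundling protein of leukocytes, at 0.12, 2.72 and 0.29 in LEC, BEC and FRC.

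Of the 9 B cell markers on the array, 7 were well above background in LEC, 7 in BEC and 6 in FRC, with summed signals of 4.92, 10.4 and 18.5, the FRC sum being led by Cr2 at 4.09. Cr2 is also a gene of follicular dendritic cells. Of 7 compared, 6 exceeded FRC in LEC (median 0.48) and 6 in BEC (median 1.27), with Cr2 at least 4-fold lower in both. Cd79a, Cd79b and Fcrla exceeded FRC 7.70-fold, 12.2-fold and 9.19-fold in BEC, and 1 of the B cell markers did so 4-fold with normexp. Pax5, which defines the lineage, and Blk were not well above background on any array. The 9 T cell markers on the array had 9, 9 and 8 well above background in LEC, BEC and FRC, with sums of 7.12, 6.88 and 2.48, the LEC sum being led by Cd5 and Lck. Of these, 4 of 9 exceeded FRC in LEC (median -0.16, and positive under the slope over those measured) and 8 of 9 in BEC (median 1.52). At 4-fold, Cd5 and Lck were higher in LEC, and Cd3d, Cd5 and Lck in BEC, where none of the T cell markers was with normexp. Cd3d and Cd3g were more than 4-fold lower in LEC than in BEC, and Cd5 more than 4-fold higher.

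Of the 9 dendritic cell markers, 7 were well above background on each array with summed signals of 100.7, 224.7 and 202.8 in LEC, BEC and FRC, nearly all of it Cst3. In each endothelium 4 of 7 were higher than in FRC (medians 0.20 in LEC and 0.14 in BEC). At 4-fold, Zbtb46 was higher in LEC (6.87-fold), and Zbtb46 (5.03-fold) and Ccr7 (9.33-fold) in BEC. Of the 10 macrophage and monocyte markers 9, 9 and 8 were well above background, the sums were 16.6 in LEC, 9.47 in BEC and 13.3 in FRC, and none was 4-fold different. Their medians against FRC were 1.03 in LEC and 0.12 in BEC. The part of these cells in the class II differences was not tested.

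**Figure D4:**
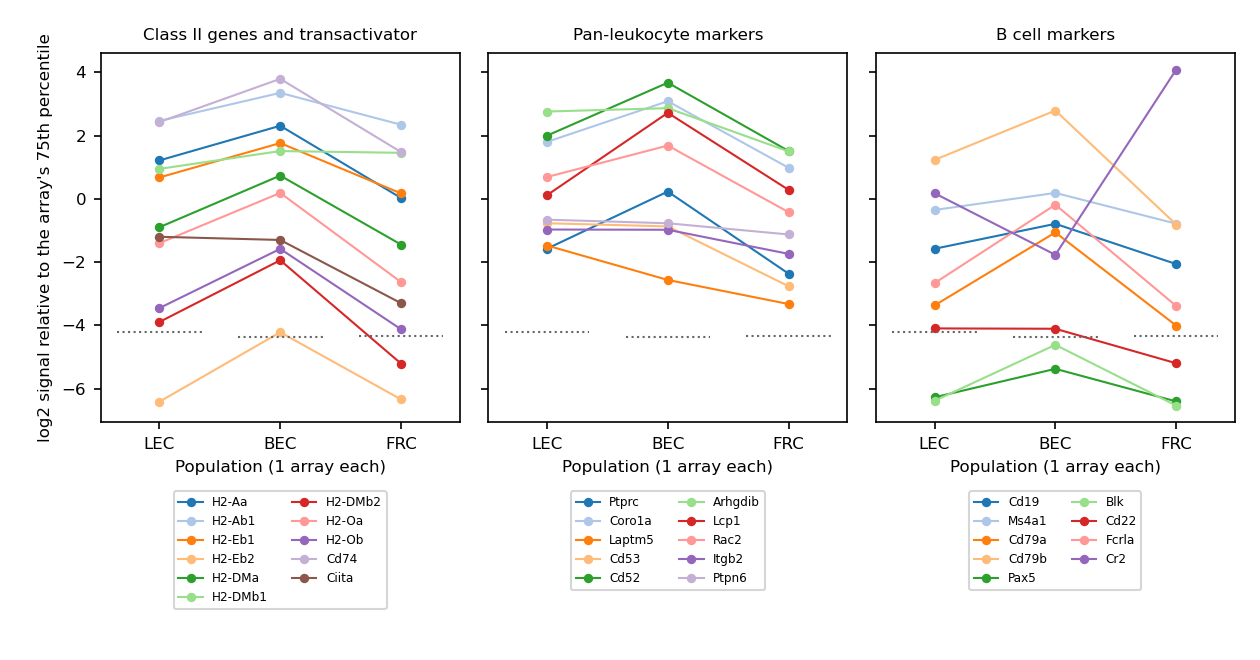
Log2 signal relative to the array's 75th percentile (y axis) across LEC, BEC and FRC (x axis, 1 array each) for class II genes with Ciita, pan-leukocyte markers and B cell markers; the dotted lines mark the lowest signal well above background on each array, and a gene can only be compared with itself across arrays. All 9 class II genes measured in LEC and BEC lie higher in BEC, Ciita does not. Of the 10 pan-leukocyte markers 6 lie highest in BEC and 4 in LEC, and of the B cell markers Cr2 lies highest in FRC.

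The promoters of 3 class II genes that differed between BEC and FRC are shown because class II promoters are known for a paired X and Y box, which the factors that recruit CIITA bind. The windows run from 250 bases before to 50 after the start site, from RefSeq on GRCm38.p6, with the X1 core (CNNGCAAC) and the Y box core (GATTGG) in capitals where they form a pair within 40 bases. The search covered both strands, and the 2 motifs do not overlap in these windows. A further Y box core outside such a pair, on the other strand of H2-Eb1 from -35 to -30, is in lower case.
H2-Aa: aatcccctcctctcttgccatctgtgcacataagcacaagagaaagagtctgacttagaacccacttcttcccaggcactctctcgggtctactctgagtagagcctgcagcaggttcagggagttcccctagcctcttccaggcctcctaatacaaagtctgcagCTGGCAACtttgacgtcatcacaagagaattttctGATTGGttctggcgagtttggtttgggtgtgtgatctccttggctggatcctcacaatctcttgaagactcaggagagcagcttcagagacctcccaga
H2-Eb1: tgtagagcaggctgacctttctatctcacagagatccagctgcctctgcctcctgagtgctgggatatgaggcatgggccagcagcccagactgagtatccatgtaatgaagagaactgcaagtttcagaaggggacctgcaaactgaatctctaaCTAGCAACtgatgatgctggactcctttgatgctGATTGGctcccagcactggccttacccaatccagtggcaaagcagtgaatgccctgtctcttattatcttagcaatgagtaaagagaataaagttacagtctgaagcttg
H2-Oa: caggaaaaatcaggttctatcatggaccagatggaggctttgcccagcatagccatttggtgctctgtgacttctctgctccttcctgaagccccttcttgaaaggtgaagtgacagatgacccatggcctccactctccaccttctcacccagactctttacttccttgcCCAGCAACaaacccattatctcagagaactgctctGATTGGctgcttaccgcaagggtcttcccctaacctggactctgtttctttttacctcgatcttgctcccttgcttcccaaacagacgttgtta
They lie at chr17:34287774-34288073 on the minus strand (H2-Aa), chr17:34305617-34305916 on the plus strand (H2-Eb1) and chr17:34092129-34092428 on the plus strand (H2-Oa). In H2-Aa the X1 core ran from -84 to -77 and the Y box core from -49 to -44 of the start site, in H2-Eb1 from -94 to -87 and -60 to -55, and in H2-Oa from -79 to -72 and -44 to -39. The order of an X1 core followed by a Y box core within 40 bases, a rule chosen after these sequences were seen, was found in 5 of 8 class II genes with a window (H2-Aa, H2-Eb1, H2-Eb2, H2-Oa and H2-Ob), in 0 of 18 class I heavy chain genes and in 0.189% of all 32851 windows. Singly, the X1 core was in 11.2% of all windows, 20.0% of class I heavy chain windows and 66.7% of class II windows. The Y box core was in 16.1% of all windows, 80.0% of class I heavy chain windows and 88.9% of class II windows. A match is a match of letters and shows no binding. Of the 58 members, 40 had a window in the table.

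The 2 classical class I promoters and that of Cd274 are shown with letters known from interferon and NF-kappa B responses: the interferon regulatory element (AANNGAAA, on either strand) and, in class I, the kappa B element (GGGGATTCCCC), both in capitals.
H2-K1: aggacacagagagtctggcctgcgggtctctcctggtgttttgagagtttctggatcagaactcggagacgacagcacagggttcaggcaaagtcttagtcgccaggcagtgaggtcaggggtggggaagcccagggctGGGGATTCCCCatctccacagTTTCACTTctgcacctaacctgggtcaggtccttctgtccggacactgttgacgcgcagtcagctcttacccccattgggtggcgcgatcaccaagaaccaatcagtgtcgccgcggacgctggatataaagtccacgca
H2-D1: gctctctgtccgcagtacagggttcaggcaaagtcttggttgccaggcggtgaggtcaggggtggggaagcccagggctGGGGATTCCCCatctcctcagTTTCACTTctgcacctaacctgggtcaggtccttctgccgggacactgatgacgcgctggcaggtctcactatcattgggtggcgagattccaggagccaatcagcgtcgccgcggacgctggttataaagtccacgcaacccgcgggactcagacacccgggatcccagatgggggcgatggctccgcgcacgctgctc
Cd274: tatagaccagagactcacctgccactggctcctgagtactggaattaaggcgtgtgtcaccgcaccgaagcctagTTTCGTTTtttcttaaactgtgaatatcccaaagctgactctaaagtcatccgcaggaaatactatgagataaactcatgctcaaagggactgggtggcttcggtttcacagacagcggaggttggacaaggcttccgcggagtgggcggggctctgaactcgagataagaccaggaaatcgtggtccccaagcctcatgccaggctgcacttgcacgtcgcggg
They lie at chr17:34000298-34000597 on the minus strand (H2-K1), chr17:35262844-35263143 on the plus strand (H2-D1) and chr19:29367188-29367487 on the plus strand (Cd274). The kappa B letters ran from -111 to -101 in H2-K1 and from -171 to -161 in H2-D1, and were in 10 of 32851 windows (0.0304%), of which 3 belong to these 2 genes. The interferon element lay at -90 to -83, -150 to -143 and -175 to -168 in H2-K1, H2-D1 and Cd274, in each case on the other strand, and was in 23.9% of all windows and in 22 of 44 windows of members. The letters TTCNNNGAA of a STAT site, searched on both strands and found in 8.30% of all windows, were not in the Cd274 window.

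Cd274, which encodes PD-L1, the ligand of the inhibitory receptor PD-1, differed more than any other member. It was at 2.63 in LEC, 2.42 in BEC and -1.78 in FRC, with its 1 probe at chr19:29462363-29462422 (mm9). That was 21.2-fold above FRC in LEC and 18.3-fold above FRC in BEC, while LEC and BEC differed by 0.21, which turned to -0.01 under the spike-in slope. Over the 5 other scalings the difference from FRC ran from 3.84 to 4.78 in LEC and from 3.43 to 4.79 in BEC. It was the single member past 8-fold in either comparison. The second PD-1 ligand, Pdcd1lg2, was not well above background on any array.

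Icosl and Cd80, both co-stimulatory ligands, were higher in FRC. Icosl, the ligand of the T cell receptor ICOS, was at -3.18 in LEC, -2.003 in BEC and -0.55 in FRC, 6.17-fold higher in FRC than in LEC and 2.73-fold higher in FRC than in BEC. Its other probe was not well above background on any array, and under normexp the LEC minus FRC difference was -1.53, short of 4-fold. Cd80, a B7 ligand of CD28 and CTLA-4, was well above background in FRC alone, at -2.89, at least 2.47-fold above LEC and at least 2.80-fold above BEC, and by 1 of its 2 probes. With normexp the Cd80 differences against FRC were -0.39 in LEC and -0.44 in BEC, and under the slope -0.66 and -1.24.

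Of 25 other co-stimulatory and inhibitory ligands listed for comparison, 23 were on the array. In LEC against FRC 6 of 18 compared were at least 4-fold higher and 2 at least 4-fold lower (median 0.94). In BEC against FRC 9 of 19 were higher and 1 lower (median 1.56). Of all genes, 4.89% were higher and 5.93% lower in LEC, and 6.58% were higher and 7.57% lower in BEC. Of those measured on both arrays, 5 exceeded FRC 4-fold in LEC, and 3 with normexp. Vsir, which encodes the inhibitory ligand VISTA, was at 3.84 in LEC, 2.55 in BEC and -0.80 in FRC, 25.0-fold and 10.2-fold higher in the endothelia. Nectin2, a ligand of TIGIT and DNAM-1, was at 4.42 in LEC, 3.29 in BEC and -0.06 in FRC, 22.3-fold and 10.2-fold higher. Icam2, an endothelial ligand of LFA-1, exceeded FRC 87.1-fold in LEC and 144.0-fold in BEC, and Raet1e, a ligand of the activating receptor NKG2D, at least 44.4-fold and at least 26.3-fold. Cd40, a co-stimulatory receptor, exceeded FRC 6.89-fold in LEC and 4.03-fold in BEC.

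At 4-fold, 2 of the 18 ligands compared between the endothelia differed, both higher in BEC, against 3.38% of all genes. Ceacam1, a homophilic adhesion receptor, was at -0.30 in LEC, 4.26 in BEC and -3.77 in FRC, so that BEC was 23.6-fold above LEC. Cd200, the ligand of an inhibitory receptor of myeloid cells, was at 1.56 in LEC, 4.36 in BEC and 1.32 in FRC, 6.95-fold above LEC. In contrast, Tnfsf9 (4-1BBL), a co-stimulatory TNF family ligand, separated FRC from both: it was not well above background in LEC or BEC and was at -1.75 in FRC, so that FRC was at least 5.45-fold above LEC and at least 6.18-fold above BEC.

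**Figure D5:**
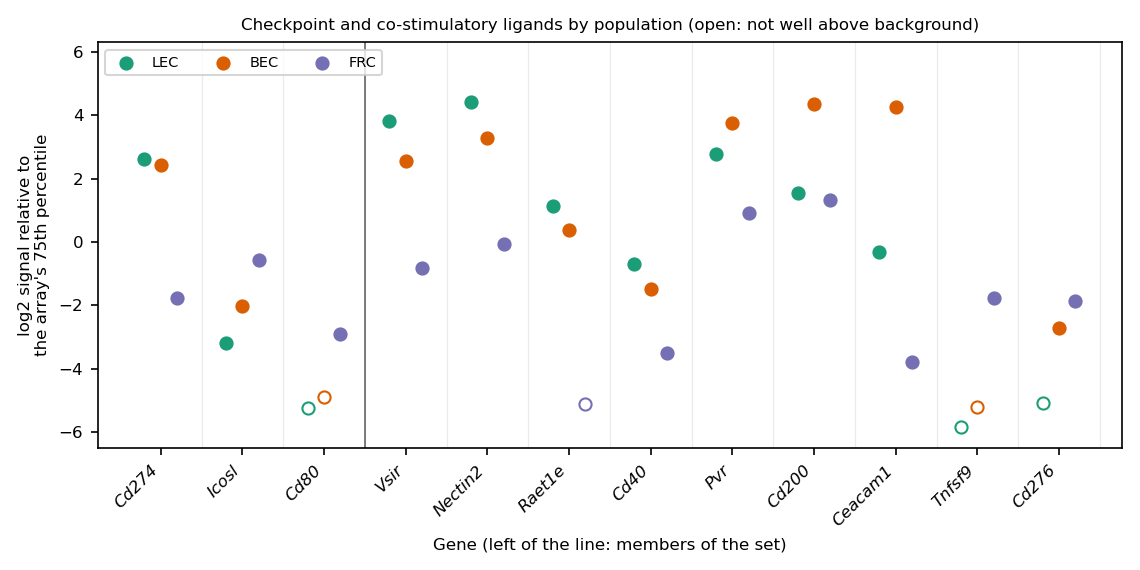
Log2 signal relative to the array's 75th percentile (y axis) of checkpoint and co-stimulatory ligands (x axis) in LEC, BEC and FRC, 1 array each, with open points not well above background; genes left of the vertical line are members and the others come from the list of further ligands. Cd274, Vsir, Nectin2, Raet1e, Cd40, Pvr and Ceacam1 lie higher in both endothelia than in FRC, and Icosl, Cd80 and Tnfsf9 lie higher in FRC.

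Cd1d1, which presents lipid antigens to NKT cells, was at 1.91 in LEC, 1.75 in BEC and 0.87 in FRC, 2.06-fold and 1.84-fold higher in LEC and BEC than in FRC. The 2 genes outside the MHC families, H2-Ke2 (2.91 in LEC, 2.96 in BEC and 2.84 in FRC) and H2-Ke6 (1.33, 1.73 and 0.86 in LEC, BEC and FRC), were less than 2-fold different in each comparison, and under the slope H2-Ke2 turned in both comparisons with FRC.

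Other genes that act on these pathways were taken from fixed lists. Of all genes, 4.89% in LEC and 6.58% in BEC were at least 4-fold above FRC, and 5.93% and 7.57% at least 4-fold below. With 10 genes in a list, a count of 0 cannot be told from such shares. Of 10 genes of interferon-gamma reception and signalling, 0 were 4-fold different against FRC in either endothelium (medians 0.38 in LEC and 0.36 in BEC, or -0.14 and -0.15 under the spike-in slope), and Irf8 was 4.02-fold higher in LEC than in BEC, though below 4-fold with median scaling and under the slope. Of 18 genes known to be induced by interferons, 3 exceeded FRC at least 4-fold in LEC (median 1.04; 0 with normexp) and 4 of 17 in BEC (median 1.17; 3 with normexp). Gbp4 and Mx2 led them: Gbp4, a guanylate-binding protein, was 5.70-fold and 18.9-fold higher in LEC and BEC than in FRC, and Mx2, an antiviral GTPase, 8.54-fold and 10.3-fold. Of the 17 other class II pathway genes on the array, 1 exceeded FRC at least 4-fold in LEC, the lysosomal protease gene Lgmn (5.94-fold). In BEC 1 did, Marchf1, a ubiquitin ligase that removes class II from the surface (8.79-fold). With normexp these counts were 1 in LEC and 0 in BEC.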

How the data were processed

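Total RNA of 3 sorted populations was amplified in a single round to dye-coupled cRNA per the labels' protocols and hybridised to 1 single-colour Agilent array each. The submitters' processing notes name Agilent Feature Extraction 10.7.3.1. The intensity used from the authors' deposited scanner files has, per the file headers, the background subtracted and no scaling between arrays. The deposited series matrix holds linear intensity values by the authors with equal column distributions, and was used as an alternative. The sources used here do not name the program behind that matrix.

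Spots marked as outliers were dropped (18 probes lost all), replicate spots were averaged, and each of 41156 probes got log2 intensity minus the array's 75th percentile, which was 268 in LEC, 361 in BEC and 387 in FRC. Between 59.7% and 60.5% of probes were well above background and no spot was saturated. A gene stood for its brightest probe and entered a comparison with at least 1 probe well above background on either array. Current symbols came through accessions in a RefSeq table, which matched 76 of the members' 89 probes. Python 3.11.15 (numpy 2.4.6, pandas 2.3.3) and, for normexp with an offset of 50, limma 3.58.1 in R 4.3.3 were used, and the steps were tested on simulated data.

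Members, lists and thresholds were chosen with earlier results of these data known. Values were given for members 4-fold different in any comparison and for the leading members of each role, members dim on every array were named without values, and genes of other lists were named only at 4-fold, up to 6 per list and comparison, or as defining markers at background. Psmb5, Psmb6, Psmb7, Calr, Canx and Pdia3 are named to say what their list holds, and further members and leukocyte markers were named after their values were seen.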

Additional observations from a re-analysis of the deposited data

How the results depend on the processing

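No paired analysis was possible because each population had 1 array, and for the same reason no array could be left out. The choices below were 75th-percentile scaling, the dim-probe filter, the probe rule and the 4-fold threshold; leaving out H2-Ke2 and H2-Ke6 and counting H2-K1 as the single heavy chain were added after seeing the data. The cause of each shift was not tested. In LEC against FRC, the 3 members higher in LEC became 24 at 2-fold and 1 at 8-fold, and the 1 higher in FRC became 0 with normexp, 2 with no filter, 2 at 2-fold and 0 at 8-fold. Their median of 1.13 became 1.02 with normexp, 1.19 with quantile normalization and with the authors' matrix, 0.28 under the spike-in slope, 0.72 with no filter, 1.19 with own probes above background on both arrays and without H2-Ke2 and H2-Ke6, and 0.68 with H2-K1 alone. In BEC against FRC, the 7 members higher in BEC became 4 with normexp, 28 at 2-fold and 1 at 8-fold, and the 0 higher in FRC became 1 with no filter and 2 at 2-fold. The median of 1.30 became 1.04 with normexp, 0.77 under the slope, 1.16 with no filter and 1.14 with H2-K1 alone. In LEC against BEC, the 0 members higher in BEC became 1 (H2-DMb2) with median scaling, quantile normalization and the authors' matrix, 2 (H2-Eb2 and H2-M9) with no filter and 8 at 2-fold. The median of -0.12 became -0.0015 with normexp, -0.18 with median scaling, -0.0019 with quantile normalization, -0.0013 with the authors' matrix, -0.50 under the slope, -0.0138 with no filter, -0.0213 with the mean over probes and -0.41 with H2-K1 alone. No called member changed direction under any setting run. Among the others, the slope turned 11 of 42 members in LEC against FRC, 5 of 44 in BEC against FRC and 11 of 43 in LEC against BEC. The median SD between spots, over probes spotted 10 times, was about 0.05. A difference carries the spot error of 2 arrays, so differences somewhat above 0.05 may also lie within spot error. Most members' probes had 1 spot and no such measure, and signals near the background mark have only bounds.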

Other observations

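One class I gene fell outside the naming rule. Gm7035, whose current symbol is H2-K2, had 2 probes, at 7.91 and 8.25 in LEC, 7.72 and 7.95 in BEC and 6.35 and 6.78 in FRC. The LEC minus FRC differences were 1.56 and 1.47, the BEC minus FRC differences 1.37 and 1.16 and the LEC minus BEC differences 0.19 and 0.30. These were not recomputed under the other scalings. Its probes were not among those compared by sequence.

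Further genes of the interferon and ligand lists were 4-fold different. Irf7, a regulator of type I interferon, was at 1.21 in LEC, 2.45 in BEC and -0.63 in FRC, 8.49-fold above FRC in BEC. Ido1, which degrades tryptophan, was at -1.80 in LEC, -1.68 in BEC and -4.18 in FRC, 5.22-fold and 5.66-fold higher in LEC and BEC than in FRC. Pvr, a ligand of TIGIT and DNAM-1, was at 2.78 in LEC, 3.77 in BEC and 0.92 in FRC, 7.19-fold above FRC in BEC.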
